A study of Mus musculus with 6 samples.

Results

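Messenger RNA levels of 9 genes used as markers of the intestinal epithelium were examined in mouse pancreatic islets, the clusters of hormone-secreting cells of the pancreas. The genes, Adh6a, Vil1, Cdx1, Cdx2, Lgals4, Muc2, Tff3, Krt20 and Cdh17, were picked by name with earlier results of these arrays known, and each was read from every probe whose RefSeq accession names it. A probe was found for 8 of the 9 genes, among 32494 genes or transcripts with a probe on the array. The probe of Muc2 was not identified through the accessions and the gene was not analysed here.

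The study profiled islets on 6 Agilent 1-colour microarrays, 2 for each of 3 genotypes. All mice were male, 16 weeks old and on the ICR background, and all carried loxP sites on both alleles of Trsp, the gene of the selenocysteine tRNA needed to make selenoproteins. TrspFF mice carried no Cre recombinase, Trsp-RIPKO mice also carried RIP-Cre, and Trsp-Ins1KO mice also carried Ins1-Cre. RIP-Cre uses the rat insulin promoter, which is known to be active in some hypothalamic neurons as well as in beta cells, and Ins1-Cre uses the regulatory sequence of the insulin 1 gene. A knockout group therefore loses Trsp in the cells its Cre reaches and not in the whole islet. The labels name no separate animals behind the replicate arrays. The p-values below hence reflect the spread of the deposited samples alone, and that spread may be technical.

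The intestinal epithelium is a single sheet of absorptive enterocytes, mucus-secreting goblet cells, hormone cells, tuft cells and, at the crypt base, Paneth cells and stem cells. Its identity is set by the homeodomain factors Cdx1 and Cdx2, which switch on genes of the brush border, of cell adhesion and of mucus. Islets arise from the same embryonic gut tube and keep several epithelial genes of the gut.

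The sequences just upstream of the genes are shown first for the members that were measured in the islets and have an entry in the RefSeq promoter table of GRCm38.p6. Each run gives the 250 bases before the annotated start, 5′ to 3′ on the gene's strand. Capitals mark a TATA box (TATAAA) or a GATA motif (AGATAA, which reads TTATCT on the opposite strand). Adh6a lies at chr3:138313036-138313285 on the plus strand, Krt20 at chr11:99438154-99438403 on the minus strand, Lgals4 at chr7:28833544-28833793 on the plus strand and Vil1 at chr1:74409134-74409383 on the plus strand.
Adh6a: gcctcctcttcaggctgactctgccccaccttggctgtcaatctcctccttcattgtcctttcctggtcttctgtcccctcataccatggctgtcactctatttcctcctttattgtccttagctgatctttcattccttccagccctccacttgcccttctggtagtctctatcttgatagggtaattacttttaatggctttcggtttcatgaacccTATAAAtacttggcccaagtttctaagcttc
Krt20: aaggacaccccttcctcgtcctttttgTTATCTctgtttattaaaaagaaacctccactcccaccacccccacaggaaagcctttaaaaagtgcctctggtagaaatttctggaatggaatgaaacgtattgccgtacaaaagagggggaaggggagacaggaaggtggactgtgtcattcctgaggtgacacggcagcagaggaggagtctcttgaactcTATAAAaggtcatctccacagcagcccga
Lgals4: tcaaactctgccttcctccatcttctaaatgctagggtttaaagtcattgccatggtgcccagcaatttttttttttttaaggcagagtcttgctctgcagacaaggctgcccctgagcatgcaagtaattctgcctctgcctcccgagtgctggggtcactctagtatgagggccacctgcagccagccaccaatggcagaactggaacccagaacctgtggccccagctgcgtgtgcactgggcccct
Vil1: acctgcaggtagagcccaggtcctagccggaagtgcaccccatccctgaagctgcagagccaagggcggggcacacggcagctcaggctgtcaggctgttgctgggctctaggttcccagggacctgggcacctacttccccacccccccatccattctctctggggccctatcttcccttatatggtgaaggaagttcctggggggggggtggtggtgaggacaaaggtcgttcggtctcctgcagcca

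Both members that were measured on the Trsp-RIPKO arrays alone, Adh6a and Krt20, carry a TATA box, 31 and 29 bases before the start. The Lgals4 and Vil1 sequences, from members measured on every array, hold none. Krt20 also has the GATA motif 223 bases before its start, on the opposite strand. Over 32817 promoter windows of the same length, 12.4% hold TATAAA and 9.99% hold AGATAA on either strand. A CDX motif (TTTATGG, found in 2.43% of windows) and an HNF4 motif (CAAAGTC, 3.84%) were searched on both strands as well and neither is in the 4 windows. The CDX motif on its opposite strand shares the letters ATAAA with the TATA box. GC content was 46.4% for Adh6a, 48.0% for Krt20, 53.6% for Lgals4 and 62.8% for Vil1, beside a median of 52.4% over all windows. These matches describe letters in a window and show no binding.

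Array levels are given as log2 of the scanner's processed intensity minus the array's own 75th percentile, so that a probe at that percentile has a level of 0. The scanner software also marks each spot as well above background or not, and a gene marked on no array of a group has only an upper bound there. The 75th percentile was lower on the Trsp-Ins1KO arrays, at intensities of 121.9 and 110.7, than on the TrspFF arrays (247.2 and 218.1) and the Trsp-RIPKO arrays (215.2 and 203.0). The share of probes well above background was 52.2% and 51.4% on the Trsp-Ins1KO arrays and between 57.5% and 61.0% on the other 4. A weak gene was therefore more easily marked on TrspFF and Trsp-RIPKO arrays, and a spot at the scanner floor has a higher level on a Trsp-Ins1KO array because that array is dimmer.

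The Trsp-RIPKO arrays shared a slide of their own, while the TrspFF and Trsp-Ins1KO arrays lay together on the other slide. For every value that sets Trsp-RIPKO apart, slide and genotype cannot be told apart. In the authors' own deposited table of log2 values, the columns named TrspFF follow the scanner files of Trsp-Ins1KO and those named Trsp-Ins1KO follow the files of TrspFF (r = 1.0 each, over 19486 probes). The Trsp-RIPKO columns follow their own files. The groups here are those of the scanner files. Under the table's names, what is said of TrspFF and of Trsp-Ins1KO changes places, and which arrays are Trsp-RIPKO does not change. Xist, the RNA of the inactive X chromosome, was well above background on the TrspFF arrays (levels -0.56 and -0.32) and the Trsp-RIPKO arrays (1.05 and 1.34) and on no Trsp-Ins1KO array, although all mice are labelled male and the Y-linked genes Ddx3y, Eif2s3y, Kdm5d and Uty were measured in every group. Between Trsp-RIPKO and TrspFF, Xist rose by 1.63, and Ddx3y fell by 1.36, Eif2s3y by 1.13, Kdm5d by 0.84 and Uty by 0.84 (limma adjusted p between 0.00332 and 0.0427). A second Xist probe rose by 1.68, while a second, weak Uty probe did not fall (0.18, with overlapping groups). The labels do not tell whether samples were pooled or misnamed, and the part of this shift in the members' levels was not tested.

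The 8 members with a probe fell into 3 patterns. Adh6a and Krt20 were well above background on the Trsp-RIPKO arrays and on no other, and Tff3 and Lgals4 had their highest levels there. Vil1 was bright on all 6 arrays and nearly level. Cdx1, Cdx2 and Cdh17 were well above background on no array. The factors that define an intestinal epithelium and a cadherin typical of it were thus not measured in any islet sample. The members were chosen with these values known, so they are a description and no test of them is given.

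**Figure D1:**
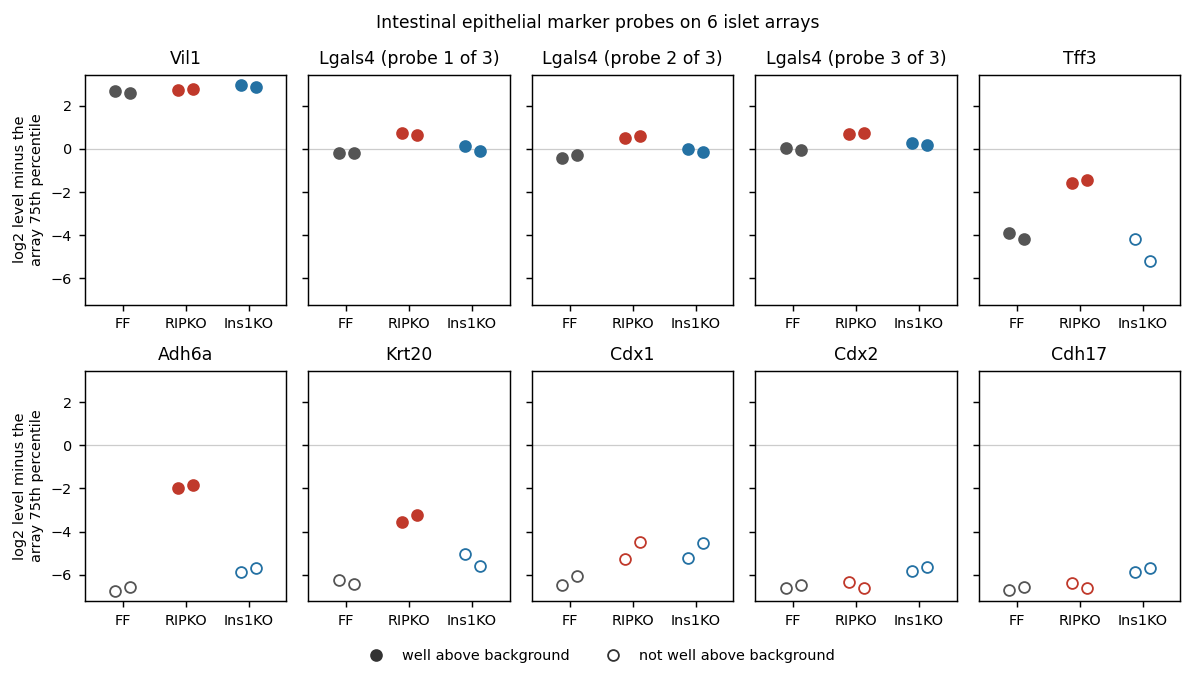
Levels of the 10 probes of the 8 members (log2 processed intensity minus the array's 75th percentile, vertical axis) on the 6 arrays, grouped by genotype, with filled points for spots well above background and open points for spots that are not. Adh6a, Krt20 and Tff3 are highest on the Trsp-RIPKO arrays, the 3 Lgals4 probes move alike, Vil1 is nearly level, and Cdx1, Cdx2 and Cdh17 have open points only.

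Adh6a encodes an alcohol dehydrogenase of the class found in gut and liver. On the Trsp-RIPKO arrays its processed intensity was 53.7 and 57.6. It was 2.33 and 2.32 with TrspFF RNA and 2.06 and 2.14 with Trsp-Ins1KO RNA. The last 4 values lie at the scanner floor, which was between 2.0 and 2.53 on the 6 arrays. The Trsp-RIPKO levels were -2 and -1.82, those of TrspFF -6.73 and -6.56, and those of Trsp-Ins1KO -5.89 and -5.69. The Trsp-RIPKO level was at least 5.35-fold higher than that of TrspFF and at least 2.96-fold higher than that of Trsp-Ins1KO. Such a bound sets the mean of the brighter group against the lowest level that was still well above background on each array of the dimmer group, or the probe's own level where that was higher. TrspFF and Trsp-Ins1KO have no order for this gene. In bulk islet RNA, more cells that carry a transcript and more transcript in each cell cannot be told apart.

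Krt20, a keratin of mature surface epithelium in the gut, followed the same pattern at a lower signal. The Trsp-RIPKO intensities were 18.5 and 21.4, while TrspFF gave 3.28 and 2.49 and Trsp-Ins1KO gave 3.72 and 2.28. As levels, Trsp-RIPKO stood at -3.54 and -3.25, TrspFF at -6.23 and -6.45 and Trsp-Ins1KO at -5.03 and -5.60. It was at least 1.91-fold higher in Trsp-RIPKO than in TrspFF. Against Trsp-Ins1KO the bound was only 1.06-fold, because those dimmer arrays could not have measured so weak a gene much further down. Under normexp background correction, which adds an offset of 50 to every signal, the difference between Trsp-Ins1KO and Trsp-RIPKO went from -1.92 to 0.25.

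Tff3, the trefoil peptide that goblet cells secrete with mucus, was well above background on both TrspFF arrays and both Trsp-RIPKO arrays. TrspFF gave intensities of 16.5 and 12.2, Trsp-RIPKO gave 73.2 and 74.1, and Trsp-Ins1KO gave 6.7 and 3.06, which were not well above background. The TrspFF levels were -3.91 and -4.16, the Trsp-RIPKO levels -1.56 and -1.45, and the Trsp-Ins1KO levels -4.18 and -5.18. The Trsp-RIPKO mean stood 2.53 above that of TrspFF on the log2 scale, a ratio of 5.76-fold, and at least 3.93-fold above that of Trsp-Ins1KO. No TrspFF value reached those of Trsp-RIPKO. For TrspFF against Trsp-Ins1KO the bound was under 1, so no fold is given.

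Lgals4 encodes galectin-4, a sugar-binding protein at the apical face of gut epithelium, and had 3 probes, all well above background on all 6 arrays. The probe with the highest mean read TrspFF intensities of 250 and 214, Trsp-RIPKO intensities of 351 and 338 and Trsp-Ins1KO intensities of 147 and 124. The TrspFF levels were 0.02 and -0.03, the Trsp-RIPKO levels 0.71 and 0.74, and the Trsp-Ins1KO levels 0.27 and 0.16. The groups did not overlap, with Trsp-RIPKO 0.73 above TrspFF (1.65-fold) and Trsp-Ins1KO 0.22 above TrspFF. The other 2 probes placed Trsp-RIPKO 0.87 and 0.90 above TrspFF, and Trsp-Ins1KO 0.19 and 0.28 above it. All 3 probes thus gave the order Trsp-RIPKO, Trsp-Ins1KO, TrspFF. The difference of Trsp-Ins1KO from Trsp-RIPKO was -0.51, -0.68 and -0.62 by the 3 probes.

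Vil1 encodes villin, the actin-bundling protein of microvilli, which is also made in embryonic gut endoderm. Of the 5 members measured in some group, it differed least between Trsp-RIPKO and TrspFF. TrspFF intensities were 1573 and 1323, Trsp-RIPKO intensities 1441 and 1396, and Trsp-Ins1KO intensities 948 and 810. Relative to each array's 75th percentile the levels were 2.67 and 2.6, 2.74 and 2.78, and 2.96 and 2.87. The group means differed by 0.13 between Trsp-RIPKO and TrspFF, by 0.28 between Trsp-Ins1KO and TrspFF and by 0.15 between the knockouts. The order depends on the scaling, since the first of these turned to -0.11 when arrays were scaled to their median. Villin was therefore measured strongly in all islet samples, with no step on the Trsp-RIPKO arrays of the size seen for Adh6a, Krt20 and Tff3.

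Cdx1 and Cdx2, the homeodomain factors that specify intestinal fate, and Cdh17, the liver-intestine cadherin, were not well above background on any array. Cdx2 intensities lay between 2.08 and 2.63 and those of Cdh17 between 2.06 and 2.58, both at the scanner floor. Cdx1 intensities ranged from 2.78 to 9.23. The TrspFF levels were -6.47 and -6.06, those of Trsp-RIPKO -5.25 and -4.46 and those of Trsp-Ins1KO -5.24 and -4.55. The level of -4.46 was still below the lowest level marked as well above background on that array, -4.32. No order of groups can be read from these 3 genes. The arrays show only that their signal was too low to measure, not that the transcripts were absent.

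Over all genes, 5 of the 9 members entered the test across the array, which takes a gene once both arrays of some group measured it. Of 19021 genes tested with limma, 36.4% reached a Benjamini-Hochberg adjusted p under 0.05, here termed a call, between Trsp-RIPKO and TrspFF, 18.9% as higher and 17.5% as lower. Between Trsp-Ins1KO and TrspFF 45.9% were called (23% higher and 23% lower), and between Trsp-Ins1KO and Trsp-RIPKO 38.7% (19.3% higher and 19.4% lower). A call was thus common on these arrays. A narrower measure is detection on both arrays of a single group. Genes well above background on both Trsp-RIPKO arrays and on no other array numbered 2 of the 8 members (25.0%) and 382 of all 32494 (1.18%). The members had been chosen with this pattern known. The same count for TrspFF was 0 of 8 members and 109 of all (0.335%), and for Trsp-Ins1KO 0 of 8 and 40 of all (0.123%).

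The rest of the intestinal program was read from 137 other genes, grouped by role, of which 133 had a probe. These lists too were drawn up with earlier results known. Of the 133 genes, 42 were well above background on no array and 54 on all 6. The TrspFF arrays measured 71 and 67 of them, the Trsp-RIPKO arrays 84 and 88, and the Trsp-Ins1KO arrays 58 and 59. In all, 12 of the 133 (9.02%) were measured on both Trsp-RIPKO arrays and no other, namely Agr2, Apob, Clca1, Espn, Fabp2, Guca2b, Itln1, Lct, Lgals2, Mogat2, Tnfrsf19 and Tph1. For TrspFF this held for Cubn alone (0.752%) and for Trsp-Ins1KO for none.

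**Figure D2:**
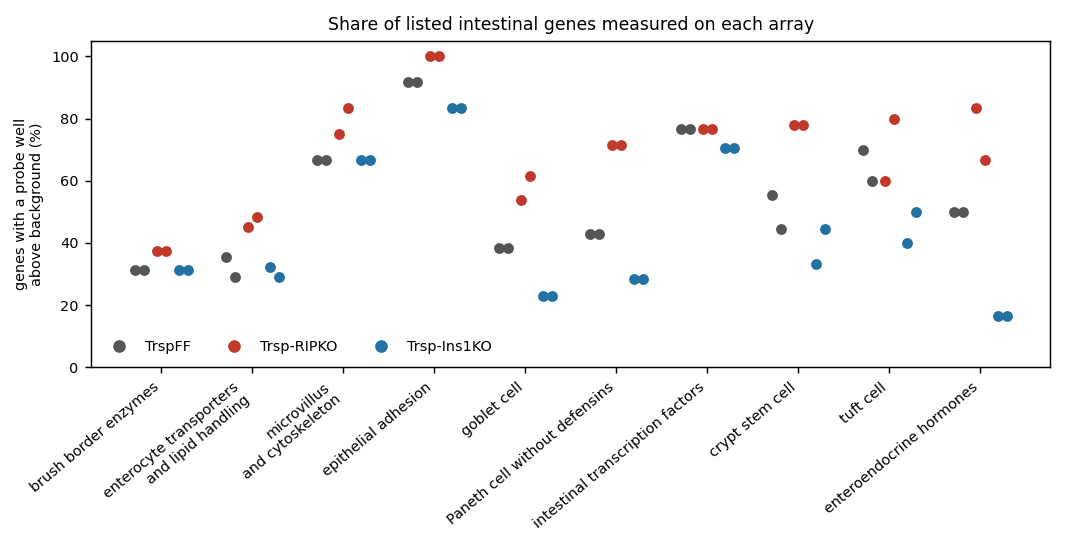
Share of listed intestinal genes with a probe well above background on each array (percent, vertical axis), by role, with 1 point per array and the genotype in colour. Goblet cell, Paneth cell, crypt stem cell and hormone genes were measured more often on the Trsp-RIPKO arrays, while the transcription factors were measured about equally, on 13 of 17 in TrspFF and Trsp-RIPKO and 12 of 17 in Trsp-Ins1KO.

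Between Trsp-RIPKO and TrspFF, 84 of these genes were tested by limma, and 28 were called higher, 9 lower and 47 not called. The background was 18.9% higher and 17.5% lower, and the list had 33.3% higher, with a median difference of 0.25 beside a median of 0.00 over all genes tested. Genes enter the test through the group where they are bright, so the same count was taken over genes measured on every array. Of these 54 genes, 12 were called higher and 8 lower (22.2% and 14.8%), beside 18.1% and 19.7% of 16096 such genes overall. The other 16 higher calls were of genes that some arrays did not measure. Without either TrspFF array 17 genes were called higher and 1 lower, without the first Trsp-RIPKO array 4 were called lower, and without the second 18 were called higher and 2 lower.

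Several enterocyte genes that handle lipid rose in Trsp-RIPKO. Fabp1 and Fabp2, the liver and intestinal fatty acid binding proteins, were at least 12.8-fold and at least 10.9-fold higher than in TrspFF (limma adjusted p = 0.00154 and 0.00552). Fabp2 was measured on the Trsp-RIPKO arrays alone, at levels of -0.92 and -0.86, while its TrspFF spots read -6.72 and -6.38 and its Trsp-Ins1KO spots -3.99 and -5.70. Apob, the scaffold of chylomicrons, rose at least 2.58-fold (adjusted p = 0.0021), and Mogat2, an enzyme of triglyceride resynthesis, at least 1.52-fold (0.00297). In this group of 15 tested genes 6 rose and 2 fell, beside 18.9% higher and 17.5% lower of all genes tested. The falls were of Slc40a1, the iron exporter, by 0.36 and Dgat1 by 0.43 on the log2 scale. Among the 7 genes of this group measured on every array, 1 was called higher and 2 lower (14.3% and 28.6%). The shares over all such genes were 18.1% and 19.7%. Enterocyte genes that were well above background on no array include the sucrase-isomaltase gene Sis, alkaline phosphatase Alpi, the glucose carrier Slc5a1, the peptide carrier Slc15a1, Apoa4 and Rbp2. Among 6 tested brush border enzymes, lactase (Lct, at least 1.45-fold, adjusted p = 0.00197) and Anpep (0.54, 0.0201) rose, and the other 4 were not called. Fabp2, Apob, Mogat2 and Lct entered the test through the Trsp-RIPKO arrays alone. Of the 5 brush border enzymes measured on every array, 1 was called higher.

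Of 13 goblet cell genes with a probe 7 were tested, and 4 of these rose in Trsp-RIPKO, beside 18.9% of all genes tested. They were Clca1 (at least 2.04-fold, adjusted p = 0.0155), Agr2 (at least 2.07-fold, 0.00945), Muc13 by 2.17 (0.00311) and Zg16 by 1.5 (0.00364). Clca1 and Agr2 entered the test through the Trsp-RIPKO arrays alone, and among the 2 goblet cell genes measured on every array 1 was called. The call of Clca1 was lost when any TrspFF or Trsp-RIPKO array was left out, with adjusted p up to 0.0803. Atoh1, Spdef and Gfi1, the factors that direct secretory fate, were well above background on no array. Of 5 tested Paneth cell and crypt genes other than defensins, 3 rose, among them Itln1, an intelectin, by at least 7.07-fold (adjusted p = 0.00137). Itln1 and Guca2b entered the test through the Trsp-RIPKO arrays alone, and of the 2 genes of this list measured on every array 1 was called. The Trsp-RIPKO levels of Itln1 were -1.47 and -1.55, beside -5.90 and -5.35 for TrspFF and -5.80 and -5.60 for Trsp-Ins1KO. Its second probe gave a bound of 3.3-fold. Lgals2, a galectin like Lgals4, rose at least 4.97-fold (adjusted p = 0.004) and also entered the test through the Trsp-RIPKO arrays alone.

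The hormone gene Cck, made by gut I cells and at low level in islets, rose by 3.38 (SE 0.141, limma adjusted p = 0.000992). It was well above background on every array, with Trsp-RIPKO levels of 0.19 and -0.04, Trsp-Ins1KO levels of -1.78 and -2.07 and TrspFF levels of -3.22 and -3.38. Tph1, the serotonin-making enzyme, rose at least 1.64-fold (adjusted p = 0.000626), and Tac1 fell by 0.58 (0.0122). Of 7 tested stem cell genes 3 rose, Smoc2 by 1.14, Msi1 by 0.37 and Tnfrsf19 by at least 2.39-fold, while Lgr5 was not measured on any array. A second Tnfrsf19 probe gave a bound of only 1.38-fold. Of 6 tested tuft cell genes Ptgs1 rose by 0.71, and Trpm5, a taste-signalling channel also known in beta cells, fell by 0.98 (adjusted p = 0.00724), as did Alox5ap by 0.50. Of 9 tested microvillus genes, Myo1a rose by 0.73 and Espn at least 1.79-fold, and 7 were not called. Tph1, Tnfrsf19 and Espn entered the test through the Trsp-RIPKO arrays alone. These counts stand beside 18.9% called higher and 17.5% lower of all genes tested. Among genes measured on every array, 1 of 3 stem cell genes and 1 of 8 microvillus genes were called higher. Of 4 such tuft cell genes, 1 was called higher and 2 lower.

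Adhesion genes went both ways, with 5 of 12 higher and 3 lower, beside 18.9% and 17.5% of all genes tested. Among the 10 measured on every array, 4 were called higher and 3 lower. Lgals2 rose as given above, and Cdh1 (0.43), Cldn3 (0.43), Cldn15 (0.40) and Gpa33 (0.29) rose less, while Tjp3 (-0.62), Tspan8 (-0.49) and Cldn7 (-0.30) fell. Each of the 9 falls except that of Trpm5 was lost without at least 1 array, with adjusted p between 0.0558 and 0.18 at its highest. With the replicate number as a block, the calls of Dgat1 (adjusted p = 0.0518) and Cldn7 (0.0542) were lost.

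Of 13 tested transcription factors of the gut, 0 were called higher between Trsp-RIPKO and TrspFF by limma, with 4 higher at an unadjusted p under 0.05. Vdr, the vitamin D receptor, fell by 0.32 (limma adjusted p = 0.0338). The gut and islet factors Hnf4a (0.22, adjusted p = 0.0598), Klf5 (-0.47, 0.0525) and Pdx1 (0.19, 0.119) were not called. Neither were Hes1 (0.81, 0.0722), Creb3l3 (0.69, 0.0683), Prdm1 (0.27, 0.0664), Elf3 (0.25, 0.302), Gata6 (0.11, 0.496), Klf4 (-0.13, 0.26), Nr1h4 (0.13, 0.538) and Hnf4g (-0.06, 0.85). Among these, Hnf4a, Klf4, Klf5, Creb3l3, Hes1 and Prdm1 were called under at least 1 other setting, and the signs of Hnf4a, Gata6, Nr1h4 and Pdx1 turned with median scaling. Gata4 and Isx were well above background on no array, as Cdx1 and Cdx2 were.

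**Figure D3:**
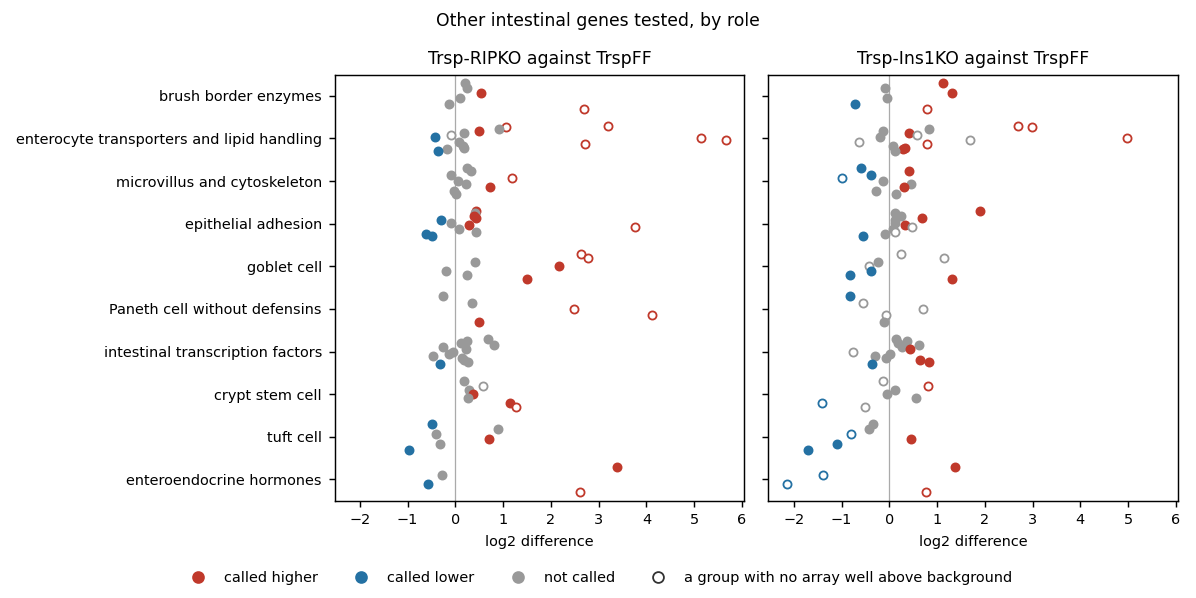
Log2 differences (horizontal axis) of the 84 tested intestinal genes that are not members, by role, for Trsp-RIPKO against TrspFF at the left and Trsp-Ins1KO against TrspFF at the right, coloured by limma call, with open points where a group has no array well above background. The largest rises at the left are mostly open points, among them lipid, goblet and Paneth cell genes, while many smaller rises are filled points. The transcription factors hold no called rise at the left and 3 at the right.

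Between Trsp-Ins1KO and TrspFF, which lay on the same slide, 23 of the 84 genes were called higher and 15 lower by limma, beside a background of 23% each. Of the higher calls, Apob, Lct, Mogat2 and Tph1 were measured by neither group's arrays, nor was Espn among the lower calls, so 19 and 14 calls rest on a measured group. Without the first or the second TrspFF array the higher calls were 14 and 15. The median was 0.12, or 0.05 with unmeasured genes at their bound. Fabp1 was at least 11.3-fold higher (adjusted p = 0.000874) and Apoc3, an apolipoprotein of liver and gut, at least 7.1-fold (0.00234). Cdh1 rose by 1.90 (0.000411) and Cck by 1.37 (0.00294). Of the transcription factors, Hnf4a (0.43), Prdm1 (0.83) and Pdx1 (0.65) rose and Vdr fell by 0.37. The call of Hnf4a was lost without the first TrspFF array (adjusted p = 0.0627), and that of Vdr without either TrspFF array or the second Trsp-Ins1KO array (up to 0.104). The largest falls were those of Tac1, at least 4.32-fold, Trpm5 by 1.70, Smoc2, at least 2.14-fold, Sct, the secretin gene, at least 2.10-fold, and Sh2d6 by 1.10. The signs of Smoc2 and Sct turned under normexp (0.12 and 0.21). Fabp1 was thus high in both knockouts, with Trsp-RIPKO levels of -0.61 and -0.70 and Trsp-Ins1KO levels of -0.94 and -0.73, while Adh6a, Krt20 and Tff3 were measured in Trsp-RIPKO and not in Trsp-Ins1KO.

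Between the knockouts, 12 of the 84 genes were called higher in Trsp-Ins1KO and 26 lower (14.3% and 31.0%), beside 19.3% and 19.4% of all genes tested. The median was -0.20, or -0.09 with unmeasured genes at their bound. Over the 54 genes measured on every array, 11 were higher and 10 lower, beside 21.6% and 16.7% of all such genes. Of the lower calls, Espn, Guca2b, Lct, Mogat2 and Tph1 were too weak in Trsp-RIPKO for the dimmer Trsp-Ins1KO arrays to have measured them. That leaves 21 calls with an order, and no share over all genes was taken with the same exclusion. The 3 comparisons share their arrays in pairs, so their counts are not independent of each other.

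Likeness to the members was measured over the 6 arrays as the root mean square distance between centred log2 levels, as a description. For Adh6a the nearest genes were Defa5 (0.338), Itln1 (0.406) and Lgals2 (0.534), each well above background on the Trsp-RIPKO arrays alone. Tff3 lay nearest to Tmem100 and Muc13 (0.354 each) and Krtap12-1 (0.394). Krt20 lay nearest to a pair of transcripts with no gene symbol (0.183 and 0.201) and to Defa39 (0.228). For Vil1 the nearest were Ncapd2 (0.015), Clk3 (0.022) and Lipa (0.023), and for Lgals4 they were 3 transcripts with no gene symbol, at 0.04 to 0.045. Nearest to the mean of Adh6a, Krt20, Tff3, Lgals4 and Vil1 were Habp2 (0.155), Adam24 (0.169), a probe with no gene name (0.181), the proliferation gene Mki67 (0.213), G6pc (0.219) and a transcript with no symbol (0.227). The nearest lists of Adh6a and Krt20 thus each hold an alpha-defensin, antimicrobial peptides that Paneth cells make. These 2 members and their nearest genes were each measured on 2 arrays only. Their distances therefore largely follow brightness on those arrays, a pattern known when the members were chosen.

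Some marker lists of other cell types were also higher in Trsp-RIPKO than in TrspFF, and others were not. Among alpha-defensins, 7 of 8 with a probe were tested, and all 7 entered the test only through the Trsp-RIPKO arrays, where they are high, so their number is no support of its own. Against TrspFF the bounds included at least 45.1-fold for Defa17, at least 34.5-fold for Defa3 and at least 28.3-fold for Defa26. Second probes gave bounds of 28.8-fold for Defa3, 15.7-fold for Defa29 and only 2.27-fold for Defa26. These genes are near-identical copies, so their probes may share transcripts. Their summed level, as a ratio to the array's 75th percentile, was 8.35 and 8.66 on the Trsp-RIPKO arrays. On the other 4 arrays it was between 0.131 and 0.180, and no defensin probe used in the test was well above background. In all, 6 of 8 (75%) were measured on both Trsp-RIPKO arrays and no other, beside 1.18% of all genes with a probe. A second Defa20 probe was well above background on 1 TrspFF array and no Trsp-RIPKO array, and stood at least 1.1-fold higher in TrspFF. Over all genes tested, 18.9% were called higher and 17.5% lower between Trsp-RIPKO and TrspFF. Acinar markers were called higher for 12 of 14, with TrspFF sums of 19.2 and 20.0, Trsp-RIPKO sums of 33.4 and 37.0 and Trsp-Ins1KO sums of 31.9 and 29.9. Fibroblast and stellate cell markers were called higher for 7 of 7, with sums, in the same order of groups, of 13.1 and 13.7, 20.9 and 20.8, and 4.86 and 5.08. Smooth muscle markers were called higher for 4 of 5 (3.70 and 3.83, 4.90 and 4.99, and 5 and 4.78), and cell cycle genes for 6 of 8 (5.42 and 5.37, 8.05 and 8.17, and 5.06 and 4.67). Of the stomach markers 7 of 11 were measured on no Trsp-RIPKO array, and of the 4 tested, Gkn1 (0.86) and Tff2 (0.44) rose. For hepatocyte markers 1 of 7 rose and 1 fell in Trsp-RIPKO, while 7 of 7 rose in Trsp-Ins1KO against TrspFF, with sums of 4.40 and 4.33, 4.80 and 4.54, and 11.0 and 11.0. Duct markers rose for 2 and fell for 1 of 6, the 1 tested lymphoid marker rose, the 1 tested kidney and urothelium marker fell, and of the other islet hormone and endocrine markers 1 rose and 4 fell of 10.

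**Figure D4:**
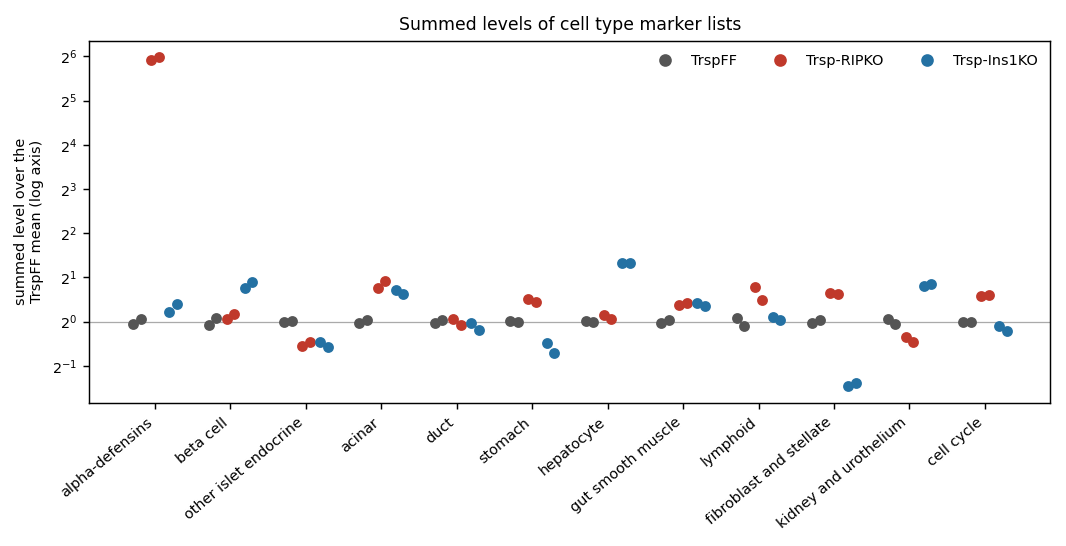
Summed level of each marker list on each array divided by the mean of the TrspFF arrays (log axis), with 1 point per array and the genotype in colour. The alpha-defensins stand far above 1 on the Trsp-RIPKO arrays alone, the acinar list is above 1 in both knockouts, the fibroblast list is above 1 in Trsp-RIPKO and below it in Trsp-Ins1KO, and the hepatocyte list is above 1 in Trsp-Ins1KO.

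Beta cell markers, which define the labelled tissue, were well above background for 10 of 10 genes on every array. Their summed level was 5930 and 6500 on the Trsp-Ins1KO arrays and between 3300 and 3910 on the other 4. Of the 10 genes, 4 were called lower in Trsp-RIPKO than in TrspFF, beside 17.5% of all genes tested. The acinar, smooth muscle, fibroblast and cell cycle lists and the alpha-defensins moved in the direction of Adh6a, Krt20, Tff3 and Lgals4 between Trsp-RIPKO and TrspFF. Their part in the members' levels was not tested.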

How the data were processed

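Total RNA of islets was labelled with Cy3 and hybridised to 1-colour arrays, per the labels' protocols. Per the file headers, the authors read the arrays with Feature Extraction 10.7.3.1, and the deposited scanner files hold each spot's processed intensity, with background subtracted and a floor but no scaling between arrays. Flags of 0 or 1 for spots well above background come from the same files. The authors' deposited table of log2 values has no stated scaling. It followed the scanner values at a slope of 1.0, with each probe centred, and its column medians were 0.087 and 0.141 under the name TrspFF, 0.011 and -0.029 under Trsp-RIPKO, and -0.079 and -0.045 under Trsp-Ins1KO. Its direction between TrspFF and Trsp-Ins1KO is unknown, since those names oppose the scanner files (r = -0.268 and -0.468 with the files of the same name).

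From the intensity, log2 values minus each array's 75th percentile were computed over 39426 probes, with 1377 control spots and outlier spots left out. No spot was saturated. RefSeq accessions named 26053 probes (66.1%) through a table of GRCm38.p6, used for names and promoter sequences only. Probes were kept if both arrays of some group had them well above background. Each gene was taken from its kept probe with the highest mean. That left 23199 probes and 19021 genes. Differences were tested in limma 3.58.1 (R 4.3.3) over all 6 arrays, two-sided, with Benjamini-Hochberg adjustment over all genes. Depth is the signal over background, and 2 arrays per group limit the precision. Scripts were tested on simulated data.

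The members and the gene lists were chosen with earlier results of these data known. Beyond the members, the named genes are the called intestinal genes with the largest changes (up to 10 rises and 10 falls for Trsp-RIPKO against TrspFF, where 9 genes fell, 5 and 5 for the other comparisons), the tested intestinal transcription factors except what is not reported here, and the nearest genes by distance. Other genes were named after their values were seen. No probe of Trsp was found, so the deleted gene gives no check of the labels. The alternatives were normexp background correction, quantile and median scaling, 2 other filters on dim probes, the mean over a gene's probes, a fit on the compared groups alone, a trended and robust fit, the replicate number as a block, the authors' table in both namings and leaving out each array. Deviations of same-numbered arrays correlated at 0.093, 0.079 and 0.065, and nothing in the labels ties the numbers to shared animals or days, so the numbers were not taken to pair the samples.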

Additional observations from a re-analysis of the deposited data

Results flagged for a closer look

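Between Trsp-Ins1KO and Trsp-RIPKO, 12 of the 84 other intestinal genes were called higher and 26 lower, beside 19.3% and 19.4% of all genes tested. The 5 largest rises and the 5 largest falls among these calls are given here. Higher in Trsp-Ins1KO were Apoc3 (log2 difference 1.92, limma adjusted p = 0.00645), Cdh1 (1.47, 0.000525), Ace (0.93, 0.00232), Anpep (0.77, 0.00655) and Prdm1 (0.55, 0.0093). The call of Prdm1 was lost without the second Trsp-RIPKO array (adjusted p = 0.05). Higher in Trsp-RIPKO were Fabp2 by at least 6.02-fold (0.00626), Smoc2 by at least 4.7-fold (0.000576), Muc13 by at least 4.28-fold (0.000949), Itln1 by at least 3.92-fold (0.000598) and Lgals2 by at least 2.76-fold (0.00257). Among the members, Tff3 stood above every TrspFF array on both Trsp-RIPKO arrays and was at least 3.93-fold over Trsp-Ins1KO. Its spots read lower on the Trsp-Ins1KO arrays than on those of TrspFF but were not well above background there, so that order cannot be read. The difference was not tested, since the gene was chosen with its values known. All these values set 2 arrays against 2 on another slide, so genotype and slide cannot be told apart.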

How the results depend on the processing

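Counts of the other intestinal genes called by limma moved with the filter, the scaling and the background correction; the cause was not tested unless stated. For Trsp-RIPKO against TrspFF, the 28 higher calls became 17 in a new fit and adjustment on only the genes measured on all arrays. That filter tests fewer genes, and the fit over all tested genes called 12 of 54 such genes higher. The 9 lower calls became 20 with median scaling, which shifted the median of all genes to -0.24, and 4 with no filter. For Trsp-Ins1KO against TrspFF, the 23 higher calls became 55 with normexp, which shifted that median to 0.16, 38 with no filter and 15 under the authors' table by its own names. The 15 lower calls became 23 under those names. For Trsp-Ins1KO against Trsp-RIPKO, the 12 higher calls became 38 with normexp and 26 with no filter. The 26 lower calls became 17 with normexp and 13 in the new fit on genes measured on all arrays, where the fit over all tested genes called 10 lower. Leaving out 1 array in turn gave 17 to 31 higher and 1 to 11 lower calls for Trsp-RIPKO against TrspFF, 14 to 24 and 10 to 17 for Trsp-Ins1KO against TrspFF, and 8 to 11 and 18 to 27 between the knockouts. With the replicate number as a block the counts were 27, 9, 24, 16, 11 and 28, beside 28, 9, 23, 15, 12 and 26, with 26, 7, 22, 15, 11 and 26 genes shared.

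Vil1 changed sign with the processing. Its difference between Trsp-RIPKO and TrspFF was -0.11 with median scaling and -0.15 under the authors' table by its own names. Between Trsp-Ins1KO and TrspFF it was -0.28 under those names, and between the knockouts -0.07 with normexp and -0.13 under those names. Lgals4 was -0.22 between Trsp-Ins1KO and TrspFF under those names. The rise of Adh6a, Tff3, Lgals4 and Krt20 in Trsp-RIPKO over TrspFF kept its direction under every alternative run, with normexp values of 1.12, 0.98, 0.64 and 0.52 on the log2 scale, where the added offset shrinks weak signals by construction. For weak genes the signal over background is the limit, and Krt20 rests on intensities of 18.5 and 21.4.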
